A study of Mus musculus with 20 samples.

Results

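Acute-phase genes encode plasma proteins that hepatocytes make in different amounts during inflammation. The 10 described here were listed by symbol and comprise the 3 fibrinogen chains (Fga, Fgb and Fgg), 4 serum amyloid A genes (Saa1, Saa2, Saa3 and Saa4), orosomucoid 1 (Orm1), haptoglobin (Hp) and hemopexin (Hpx). All 10 were among the 24972 genes of the liver table. They were measured by RNA sequencing of total liver from mice on an alcohol or a control diet for 6 weeks. The groups were WT on alcohol diet (n = 4), WT on control diet (n = 4), RageΔMye on alcohol diet (n = 3) and RageΔMye on control diet (n = 3). RageΔMye denotes loss of the receptor Rage (gene Ager) in myeloid cells, and the labels give neither the Cre line nor the age or strain of the mice. RAW264.7, a male mouse macrophage-like line, was measured 6 hours after addition of [O] HMGB1 together with IL1β, the complex (n = 3), or of BSA (n = 3). Libraries are numbered within each group, the labels tie liver libraries to no numbered animals, and p-values measure the spread between these libraries.

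In the acute-phase response, interleukin-6 acts through the shared receptor subunit gp130 and the transcription factor STAT3, and interleukin-1 and TNF act through NF-kB. C/EBP factors bind many of the same promoters. Fibrinogen is assembled from pairs of its 3 chains and is cleaved by thrombin to form clots, serum amyloid A proteins ride on high-density lipoprotein, haptoglobin binds free hemoglobin and hemopexin binds free heme.

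Values were read as TPM (length-scaled relative transcript levels), a unit that scales each gene by its length and each library to the same total. The deposited values name no unit, and the read depth behind a value is unknown. In RageΔMye control library 2, Mt1, Mt2, Blvra, Cd68 and S100a9 were all at 20.5 TPM, the most frequent value of that library. Other genes lay below that value, such as Il1r1 at 1.84 TPM. Whether values there were scaled by gene length was not tested. The 14 liver libraries fell apart by genotype label. WT libraries held values above 0 for 15113 to 15599 genes and libraries labelled RageΔMye for 7596 to 8502. Ager, the targeted gene, was at 93.1 to 166 TPM in RageΔMye alcohol libraries and at 101 to 128 TPM in RageΔMye control libraries. In WT libraries it was at most 0.478 TPM. This is opposite in direction to a loss, but the label concerns myeloid cells alone, which total liver cannot resolve. The cause of these Ager values was not tested. Genes with exons overlapped by a gene on the opposite strand took 55.8% to 61.7% of TPM in libraries labelled RageΔMye and 15.4% to 18.3% in WT libraries. The 10 genes lie in no such overlap apart from Fgg, whose partner Gm30097 has no row in the table. All liver libraries are labelled male, yet Xist was at 17.8 to 27.3 TPM in WT alcohol libraries, against 0.00165 to 0.135 TPM in WT control libraries, and 4 Y-linked genes summed to at most 0.0161 TPM, against 11.3 to 16.6 TPM. In WT, diet and this sex-linked difference therefore cannot be told apart. Summed Y-linked values were 0.276 to 1.74 TPM in RageΔMye alcohol libraries and 3.16 to 4.50 TPM in RageΔMye control libraries, without overlap. Xist was at 0.322 to 0.990 TPM in RageΔMye alcohol libraries and 0 to 3.10 TPM in RageΔMye control libraries, with overlap. In RageΔMye, diet and the Y-linked difference likewise cannot be told apart.

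The genes form 2 clusters in the mouse genome (mm10, GENCODE vM21). Fgg, Fga and Fgb span 42.1 kb of chromosome 3 (83007724 to 83049863), and Saa3, Saa4, Saa1 and Saa2 span 42.3 kb of chromosome 7 (46711998 to 46754313). Orm1 lies on chromosome 4, Hp on chromosome 8 and Hpx on chromosome 7. The promoters of the fibrinogen genes and of Saa1 and Saa2 are shown because these 2 sets moved together within libraries. They are RefSeq sequences upstream of the annotated start (GRCm38.p6), 5′ to 3′ on the strand of the gene, ending before the GENCODE gene model where that begins earlier. Capitals mark matches to the STAT palindrome TTCNNNGAA, the type II interleukin-6 response element CTGGGAA and the C/EBP motif TTNNGNAA, searched on both strands. The regions are chr3:83025903-83026075 (plus) for Fga, chr3:83049864-83050113 (minus) for Fgb, chr3:83007474-83007723 (plus) for Fgg, chr7:46742981-46743230 (minus) for Saa1 and chr7:46751583-46751789 (plus) for Saa2.
Fga: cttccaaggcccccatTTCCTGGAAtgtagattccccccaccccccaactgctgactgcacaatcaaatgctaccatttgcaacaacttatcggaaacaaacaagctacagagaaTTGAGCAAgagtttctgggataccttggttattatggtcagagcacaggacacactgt
Fgb: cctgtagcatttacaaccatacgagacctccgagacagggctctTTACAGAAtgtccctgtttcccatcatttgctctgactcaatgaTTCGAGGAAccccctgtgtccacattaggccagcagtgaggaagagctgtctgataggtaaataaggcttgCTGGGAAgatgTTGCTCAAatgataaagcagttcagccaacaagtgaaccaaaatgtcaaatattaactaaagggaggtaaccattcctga
Fgg: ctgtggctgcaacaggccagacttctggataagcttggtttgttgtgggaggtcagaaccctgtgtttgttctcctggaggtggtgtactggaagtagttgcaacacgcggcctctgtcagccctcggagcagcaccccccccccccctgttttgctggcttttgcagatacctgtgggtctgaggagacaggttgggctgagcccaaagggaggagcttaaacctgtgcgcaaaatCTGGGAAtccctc
Saa1: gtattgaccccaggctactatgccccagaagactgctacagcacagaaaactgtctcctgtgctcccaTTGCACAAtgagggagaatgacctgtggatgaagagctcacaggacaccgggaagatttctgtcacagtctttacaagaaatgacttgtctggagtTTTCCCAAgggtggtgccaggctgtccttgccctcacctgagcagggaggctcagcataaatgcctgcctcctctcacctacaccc
Saa2: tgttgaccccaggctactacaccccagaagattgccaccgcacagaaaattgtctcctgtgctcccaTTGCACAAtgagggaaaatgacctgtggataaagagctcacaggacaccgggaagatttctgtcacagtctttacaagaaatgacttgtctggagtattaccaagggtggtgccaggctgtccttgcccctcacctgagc

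Promoters of 250 bases were found for 8 of the 10 genes. The STAT palindrome was present in 2 of these 8 (Fga and Fgb), against 7.02% of 32807 promoters of this length, and the interleukin-6 element in 2 (Fgb and Fgg), against 9.10%. The C/EBP motif was present in 7 of 8, all but Fgg, against 36.8% of all promoters, and no window held the 10-base NF-kB consensus, which 3.90% of all promoters held. In Fgb the interleukin-6 element began 91 bases before the start, and a C/EBP match began 80 bases before it. These are letter matches and say nothing of binding. The Saa1 and Saa2 promoters were 95.6% identical over 249 aligned bases, and their transcripts were 94.4% identical over 606. Of the windows of 50 bases in the Saa1 transcript, 9.11% also occurred in that of Saa2. Reads from such stretches could be assigned to the other gene, and their separate values are uncertain.

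In WT liver, the fibrinogen genes were higher on alcohol diet in all 4 libraries than in any control library. Fga, the alpha chain, was at 16879, 15587, 16870.4 and 14930.0 TPM on alcohol diet, against 7725, 3954, 6041 and 14489 TPM on control diet. Fgb, the beta chain, was at 25899.7, 23844, 25888 and 23178 TPM on alcohol diet, against 12096, 6746, 8591 and 19098 TPM on control diet. Fgg, the gamma chain, was at 22445, 20105, 21317 and 19025 TPM on alcohol diet, against 9517, 5155, 6830.03 and 14981 TPM on control diet. The alcohol libraries lay close together for each chain, whereas control library 2 was lowest and control library 4 highest, close to the alcohol range. Log2 fold changes of alcohol over control, on the log2(TPM + 1) scale, were 1.30 ± 0.33 for Fgg (SE; adjusted p = 0.0276), 1.20 ± 0.33 for Fgb (adjusted p = 0.0355) and 1.16 ± 0.37 for Fga (adjusted p = 0.0582) in limma with Benjamini-Hochberg adjustment over 12069 genes. Fgg and Fgb rose, and Fga did not pass.

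Saa1 and Saa2, the serum amyloids that the liver releases in the acute phase, had the largest fold changes of the 10 and the widest spread between control libraries. Saa1 was at 13805, 15115, 16395 and 10239.6 TPM on alcohol diet, against 8945, 1532, 2988 and 8829.93 TPM on control diet. Saa2 was at 15444, 15833, 18290.4 and 10898 TPM on alcohol diet, against 8030.26, 629, 1748 and 8265 TPM on control diet. The diets did not overlap for either gene, and control libraries 1 and 4 were several times above control libraries 2 and 3. The log2 fold changes of 1.65 ± 0.58 for Saa1 (SE; limma, adjusted p = 0.0767) and 2.35 ± 0.83 for Saa2 (limma, adjusted p = 0.0762) did not pass. With single libraries left out, the log2 fold change of Saa2 ranged between 1.61, without control library 2, and 2.84, without control library 4, and Saa1 (adjusted p = 0.0458) and Saa2 (adjusted p = 0.0430) passed in limma only without control library 4. The ratio of Saa2 to Saa1 was 1.05 to 1.12 on alcohol diet and 0.411 to 0.936 on control diet.

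Saa3, which in mice macrophages and other cells outside the liver are also known to make, was at 61.7, 57.3, 66.7 and 34.9 TPM on alcohol diet, against 40.9, 9.65, 34.7 and 14.7 TPM on control diet. The diets overlapped, and the log2 fold change of 1.29 ± 0.46 did not pass (SE; limma, adjusted p = 0.0800). Saa4, known as the constitutive serum amyloid, went the other way. It was at 508, 758, 687 and 564 TPM on alcohol diet, against 1935, 984, 1601 and 1126 TPM on control diet, with no overlap. Saa4 fell, with a log2 fold change of -1.13 ± 0.24 (SE; limma, adjusted p = 0.0155).

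Orm1, an acid glycoprotein that binds drugs and lipids in plasma, was at 5779, 5176, 5852 and 4438 TPM on alcohol diet, against 2712, 1546, 2009.79 and 2768 TPM on control diet. Its log2 fold change of 1.26 ± 0.21 had the smallest adjusted p of the 10 genes (SE; limma, adjusted p = 0.00770). Hp was at 24584, 26480.2, 29734 and 19156 TPM on alcohol diet, against 16366, 10238, 10083 and 16669 TPM on control diet. Hpx was at 28252, 27083, 31529 and 22529 TPM on alcohol diet, against 16914, 9939.8, 12989.7 and 16724 TPM on control diet. None of these 3 genes overlapped between diets, and for each of them alcohol library 4 was the lowest of its group. Hp and Hpx rose, with log2 fold changes of 0.93 ± 0.26 (SE; limma, adjusted p = 0.0399) and 0.97 ± 0.24 (SE; limma, adjusted p = 0.0261).

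All 10 genes passed the filter on low values, 1 TPM or more on average in 1 or more liver groups. In WT, 5 rose, against 10.2% of genes tested that were called higher, and 1 fell, against 14.5% called lower (24.7% in either direction). The diets did not overlap for 8 genes that were higher, against 10.9% of genes tested, and for 1 that was lower, against 16.8%. The median log2 fold change of the 10 was 1.23, and that of all genes tested was -0.02. Most of these calls lie close to the threshold. When each of the 8 libraries was left out in turn, Orm1 and Saa4 passed in 8 of 8 fits, Hpx in 4, Fgg and Hp in 2 and Fgb in 1. Between 1 and 8 of the genes then rose: 8 did without control library 4, and Fga passed in that fit (adjusted p = 0.00815, limma), while only Orm1 did without alcohol library 1, 2 or 3 or control library 3.

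**Figure D1:**
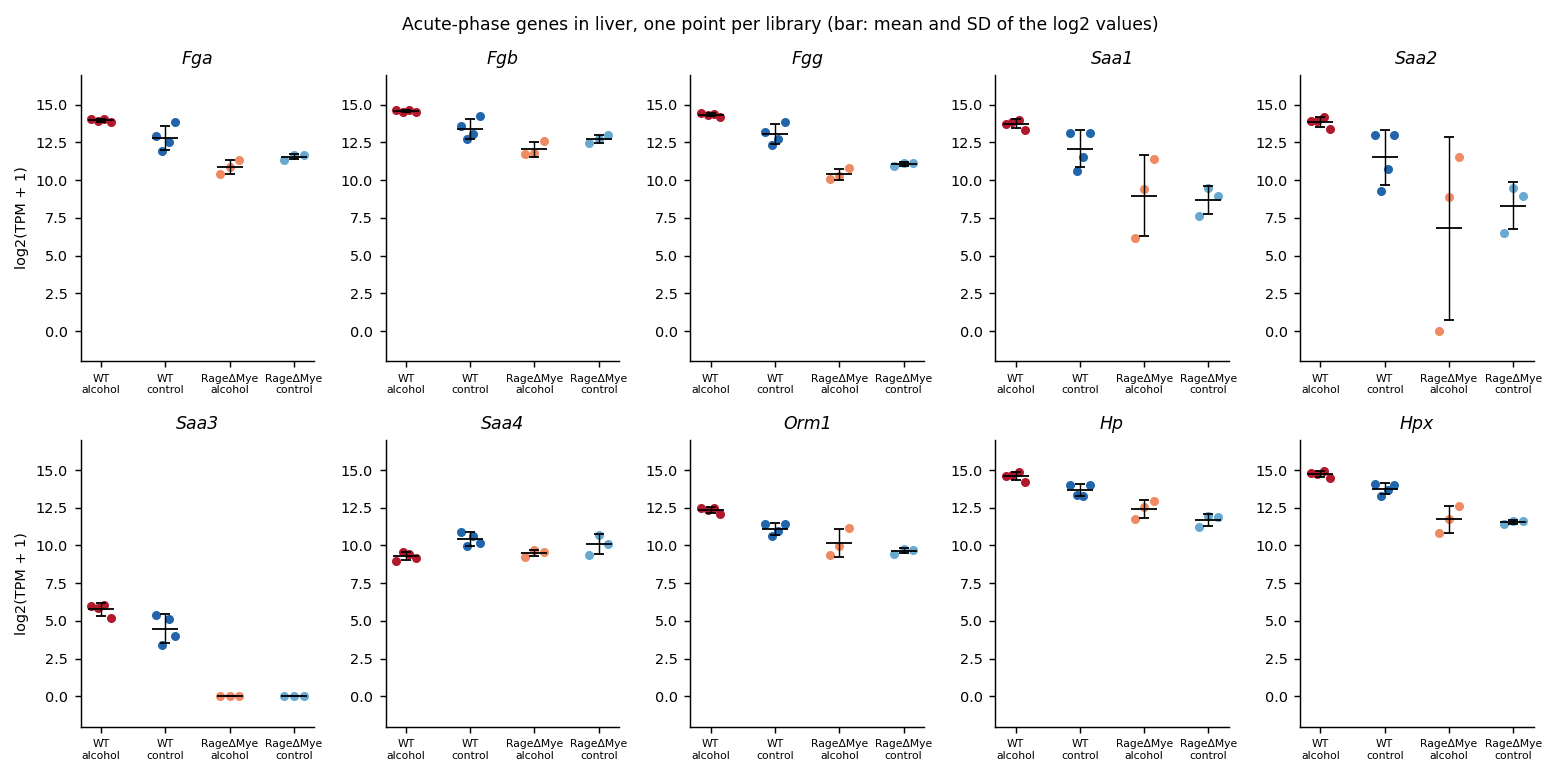
Levels of the 10 genes as log2(TPM + 1), 1 point per liver library, in WT alcohol, WT control, RageΔMye alcohol and RageΔMye control groups, with the mean and SD of the log2 values. In WT, 8 genes lie higher on alcohol diet without overlap and Saa4 lies lower, and Saa3 is at 0 in all 6 libraries labelled RageΔMye.

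The 10 genes together took 12.5% to 16.7% of all TPM in WT alcohol libraries and 4.07% to 10.3% in WT control libraries. Ratios between chains differed by less than the levels did. Fga relative to Fgb was 0.650 ± 0.004 on alcohol diet and 0.672 ± 0.075 on control diet (SD, n = 4 each; exact permutation p = 0.714, two-sided). Fgg relative to Fgb was 0.839 ± 0.021 on alcohol diet and 0.783 ± 0.013 on control diet without overlap (SD, n = 4 each; exact permutation p = 0.0286, the smallest that 4 against 4 allows, and 0.0857 after adjustment over 6 ratios). Saa2 relative to Saa1 gave the same p-values, and all of these ratios were chosen after values were seen.

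Other acute-phase genes and the pathways that act on them were read from lists. Of 29 other positive acute-phase genes tested in WT, 13 rose (44.8%, against 10.2% of all genes tested) and 0 fell (against 14.5%), with a median log2 fold change of 0.95. Among them were Cd14 (2.66), the endotoxin co-receptor, Il1rn (2.21), the interleukin-1 receptor antagonist, Hamp (1.32), the iron hormone hepcidin, and Agt (1.04), angiotensinogen. A2m, also on this list, averaged 1 TPM or more only in the WT alcohol group. Of 18 negative acute-phase genes, those known to fall in inflammation, 2 rose and 1 fell, which is 16.7% called, against 24.7% of all genes tested. The corticosteroid carrier Serpina6 (1.67) and the thyroxine carrier Serpina7 (1.38) rose, against the direction in the name of the list, and Cyp7a1 (-0.94), the rate-limiting enzyme of bile acid synthesis, fell. Cyp7a1 averaged 1 TPM or more only in the WT control group, so the filter admitted it only where it was high.

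Of 23 genes of the interleukin-6, gp130 and STAT3 pathway tested in WT, 2 rose and 5 fell, which is 30.4% called and near the 24.7% of all genes tested. Osmr (1.39), the oncostatin M receptor, and Stat3 (0.95) rose, and Cebpa (-0.92), a C/EBP factor, and Pias3 (-0.70), an inhibitor of STAT3, fell. Il6 itself was at most 0.00209 TPM in any liver library. Of 21 genes of the interleukin-1, TNF and NF-kB pathway, 10 rose (47.6%, against 10.2% of all genes tested) and 0 fell. They included the decoy receptor Il1r2 (1.57), the TNF receptor Tnfrsf1a (1.03), the kinase-like inhibitor Irak3 (0.81) and the NF-kB inhibitor Nfkbia (0.76). Of 12 genes for receptors and clearance, 3 rose and 1 fell, which is 33.3% called, against 24.7% of all genes tested. Hmox1 (1.49), which degrades heme, Tlr2 (0.93), a receptor reported for serum amyloid A, and the transferrin receptor Tfrc (0.82) rose, and the iron exporter Slc40a1 (-0.80) fell. Values in parentheses after listed genes are log2 fold changes of alcohol over control in WT from limma.

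Markers of cell types were read from lists in the same way in WT. Monocyte and neutrophil markers summed to 106 to 159 TPM on alcohol diet, against 33.0 to 80.3 TPM on control diet. Of the 8 tested, 4 rose (50%, against 10.2% of all genes tested), namely Ngp (1.55), S100a9 (1.19), S100a8 (1.08) and Itgam (0.35). Ngp and Itgam averaged 1 TPM or more only in the WT alcohol group, so the filter admitted them only where they were high. Kupffer cell and macrophage markers summed to 252 to 529 TPM on alcohol diet and 314 to 328 TPM on control diet. Of these, 0 of 12 passed in limma, against 24.7% of all genes tested (1 had an unadjusted p under 0.05). Hepatocyte markers summed to 157922 to 174106 TPM on alcohol diet and 137230 to 162465 TPM on control diet. Of 10, 0 rose (against 10.2% of all genes tested) and 1 fell (10%, against 14.5%). Adipocyte and stellate cell markers summed to 9.86 to 15.9 TPM on alcohol diet and 16.6 to 78.3 TPM on control diet. Of 5, 1 rose (20%, against 10.2% of all genes tested) and 1 fell (20%, against 14.5%). Of these markers, Des met the filter only through the WT alcohol group and Cfd only through the WT control group. In tissue, fewer cells of a type and less RNA per cell cannot be told apart, and the part of these markers in the changes of the 10 genes was not tested.

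In libraries labelled RageΔMye the 10 genes were lower as a share of TPM, at 1.24% to 3.37% on alcohol diet and 1.69% to 2.38% on control diet, and none passed. Hepatocyte markers were lower there too, summing to 38963 to 42076 TPM on alcohol diet and 36938 to 48225 TPM on control diet. In WT libraries they summed to at least 137230 TPM. The lower share was therefore not particular to the 10 genes. The values were 1359, 1849.8 and 2588 TPM on alcohol diet, against 2596, 3216 and 3268 TPM on control diet, for Fga. They were 1093, 1227 and 1789 TPM on alcohol diet, against 1975, 2274 and 2268 TPM on control diet, for Fgg. Fga and Fgg were thus lower in every alcohol library than in any control library, although for Fga the closest libraries differed by little. Fgb was at 3333, 3554 and 6235 TPM on alcohol diet, against 5595, 6826 and 8333 TPM on control diet, with overlap. Log2 fold changes were -0.69 ± 0.28 for Fga, -0.70 ± 0.34 for Fgb and -0.70 ± 0.23 for Fgg (SE; limma, adjusted p = 0.649 for each).

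For haptoglobin, orosomucoid and hemopexin the fitted differences in these libraries were above 0, and none passed. That of Hpx was below 0 without alcohol library 3 (-0.26). Hp was at 3409, 5959 and 7948 TPM on alcohol diet, against 2402, 3884 and 3845 TPM on control diet, a log2 fold change of 0.72 ± 0.41 (SE; limma, adjusted p = 0.722). Orm1 was at 659, 1019 and 2257 TPM on alcohol diet, against 706, 882 and 817 TPM on control diet, with a log2 fold change of 0.52 ± 0.48. Hpx was at 1833, 3401 and 6409.7 TPM on alcohol diet, against 2688, 3078 and 3198 TPM on control diet, with a log2 fold change of 0.20 ± 0.49. For all 3 genes the alcohol libraries had one order, library 1 lowest and library 3 highest, and the diets overlapped.

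Saa1 was at 69.4, 678 and 2694 TPM on alcohol diet, against 199, 719 and 489 TPM on control diet, in libraries labelled RageΔMye. Saa2 was at 0, 467 and 2987 TPM on alcohol diet, against 90.5, 719 and 489 TPM on control diet. The alcohol libraries spread far wider than the control libraries for both. In RageΔMye control libraries 2 and 3 the deposited values of Saa1 and Saa2 were identical, and Saa1 equalled 35 and 34 times the most frequent value of the library there, to 2 decimals. In alcohol libraries 1 and 2 and control library 1, Saa1 likewise equalled 4, 45 and 11 times that value. In alcohol library 3 it was 184.92 times that value and Saa2 205.08 times, which are not whole. In libraries labelled RageΔMye that most frequent value lay between 14.4 and 20.5 TPM, whereas WT libraries had 0.0576 to 0.0835 TPM. Log2 fold changes were 0.29 ± 1.45 for Saa1 and -1.51 ± 3.21 for Saa2 (SE), and neither direction held when single libraries were left out. Saa3 was listed at 0 in all 6 libraries. Saa4 was at 609, 819 and 762 TPM on alcohol diet, against 673, 1675 and 1099 TPM on control diet, with a log2 fold change of -0.57 ± 0.37.

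Of the 10 genes, 0 rose and 0 fell in libraries labelled RageΔMye, where 0.00829% of genes tested were called by limma, and 1 (Fgg) had an unadjusted p under 0.05, as had 768 of all 12069 genes. A fit of all 14 liver libraries together also called none of the 10 in these libraries. Non-overlap was found for 0 that were higher, against 5.2% of genes tested, and for 2 that were lower, against 5.23%. The median log2 fold change of the 10 was -0.28, and that of all genes tested was 0.00. None of the other lists had a called gene. By size of the log2 fold change, the first pair of each list was Mt2 (4.30), a metallothionein, and Orm3 (3.16), a paralog of Orm1, among the positive acute-phase genes, and Cyp2c29 (2.24, adjusted p = 0.0520, limma) and Serpina6 (1.63) among the negative ones. It was Lifr (-1.97) and Il11ra1 (-1.92), both cytokine receptors, in the interleukin-6 list, Nfkbia (1.39) and Tnfrsf1b (1.23) in the interleukin-1 and TNF list, and the biliverdin reductases Blvrb (2.42) and Blvra (1.56) in the clearance list. The diets overlapped for Mt2, Orm3, Il11ra1, Nfkbia, Tnfrsf1b and Blvra, with SEs of 1.14 to 1.97. Orm3 was listed at 0 in all 3 control libraries and Mt2 in 2 of them. Monocyte and neutrophil markers summed to 0 to 33.1 TPM on alcohol diet and 0 to 20.5 TPM on control diet, with 7 of 11 listed at 0 in all 6 libraries. Kupffer cell and macrophage markers summed to 123 to 511 TPM on alcohol diet and 372 to 588 TPM on control diet. Of these 12 markers, 0 passed (limma; 1 had an unadjusted p under 0.05), 9 had a log2 fold change below 0, with a median of -0.66 over the 12, and Clec4f (-1.90) and Cd5l (-2.46) were lower without overlap. Cd5l was at 0, 61.0 and 59.2 TPM on alcohol diet, against 103, 70.9 and 82.7 TPM on control diet. Its log2 fold change thus rested mostly on alcohol library 1, listed at 0. Timd4 was listed at 0 in all 6 libraries, and Vsig4 and Lyz2 in all 3 alcohol libraries. The part of these markers in the values of the 10 genes was not tested.

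**Figure D2:**
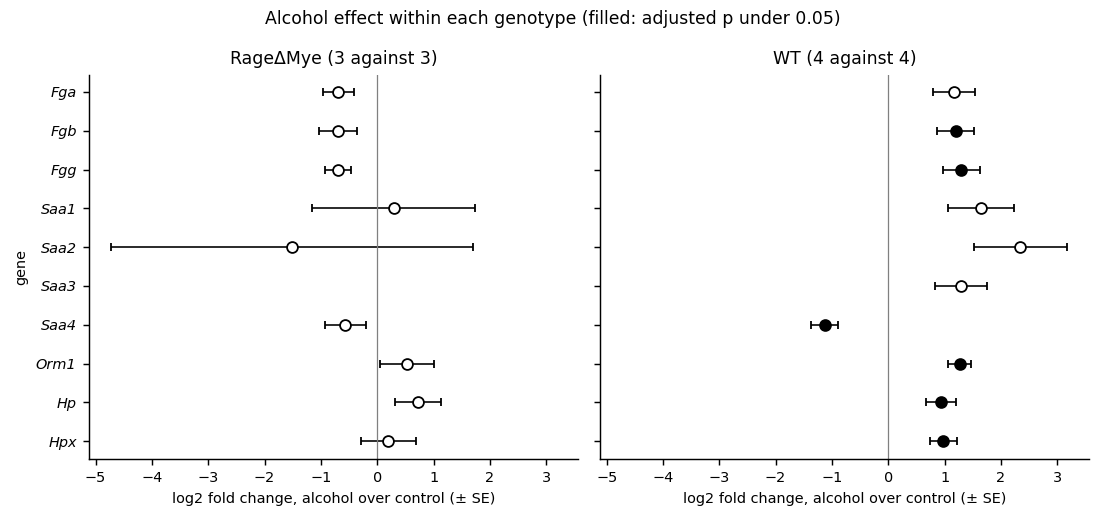
Log2 fold change of alcohol over control diet with its SE for each gene, in libraries labelled RageΔMye (left) and in WT (right), filled where the adjusted p was under 0.05. In WT, 9 genes are above 0 and Saa4 is below, whereas the 3 fibrinogen genes are below 0 and Hp above in RageΔMye. Saa3, at 0 in all RageΔMye libraries, is not drawn there.

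Ratios of fibrinogen to haptoglobin compare both within a library, where scaling cancels. Fga relative to Hp was 0.399, 0.310 and 0.326 in RageΔMye alcohol libraries, against 1.08, 0.828 and 0.850 in RageΔMye control libraries. Fgb relative to Hp was 0.978, 0.596 and 0.784 on alcohol diet, against 2.33, 1.76 and 2.17 on control diet. Fgg relative to Hp was 0.321, 0.206 and 0.225 on alcohol diet, against 0.822, 0.585 and 0.590 on control diet. None of the 3 ratios overlapped, and their log2 differences were -1.41, -1.43 and -1.42. Hp was chosen as the denominator after values were seen, and it had the largest log2 fold change of the 10 genes in these libraries (0.72). The 3 ratios share Hp, and the fibrinogen chains moved together, so the ratios are not separate observations. Their separation is a description, and the p-values do not account for that choice. The exact permutation p was 0.1 for each, two-sided, which is the smallest that 3 against 3 allows (0.167 after adjustment over 5 ratios). In WT the same ratios differed by 0.23, 0.27 and 0.37 on the log2 scale with overlap, with exact permutation p-values of 0.486, 0.229 and 0.114.

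**Figure D3:**
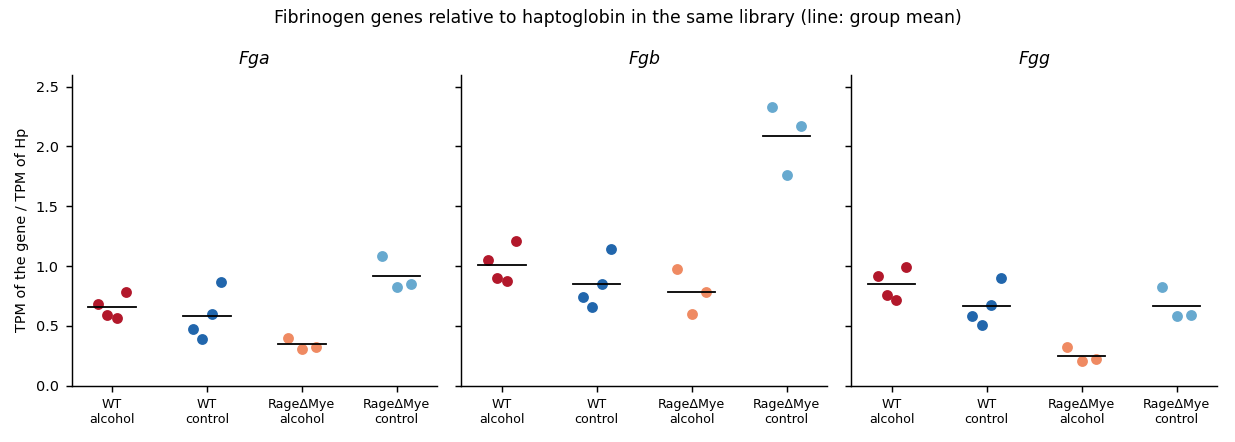
TPM of each fibrinogen gene divided by TPM of Hp in the same library, by group, with a line at the group mean. RageΔMye alcohol libraries lie below RageΔMye control libraries for all 3 genes, while the WT diets overlap. Hp was chosen as the shared denominator after values were seen.

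Whether the alcohol effect differed between genotypes depended on how the spread was modelled. The difference, RageΔMye minus WT, was -1.99 for Fgg, -1.90 for Fgb and -1.85 for Fga on the log2 scale. Within WT, diet cannot be told apart from the sex-linked difference described above, nor within RageΔMye from the Y-linked difference. Between genotypes, the label cannot be told apart from the library differences in genes above 0 and opposite-strand overlap. On simulated data, library weights estimated per genotype gave more false calls and recovered fewer changes than separate fits did. Those data gave each gene its own spread in each genotype, as separate fits assume, so they cannot decide between the fits. With library weights, the fit planned beforehand, 0 of the 10 genes passed, against 0.505% of genes tested. The 3 fibrinogen genes had adjusted p-values of 0.749, 0.759 and 0.821 there (limma), and 0 of the 10 had an unadjusted p under 0.05. When each genotype kept the spread of its own fit, an alternative added after the values were seen, Fgg (adjusted p = 0.0267) and Fgb (adjusted p = 0.0470) passed, Fga did not (adjusted p = 0.0646), and 0.505% of the genes compared were called. In 1 unweighted fit of all 14 liver libraries, Fgg (adjusted p = 0.0154) and Fgb (adjusted p = 0.0329) passed, Fga did not (adjusted p = 0.0551), and 3.84% of genes tested were called (limma). None of the other genes tested passed in any of the 3 fits, where separate fits had no test of Saa3. Their differences ranged between -3.85 for Saa2 and 0.56 for Saa4. With single libraries left out in the weighted fit, Saa2 ranged between -6.22 and -0.45 and Saa4 between 0.23 and 0.88.

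Coordination was measured on deviations from the mean of each diet group, within a genotype, so that the diet difference itself added nothing. Over the 8 WT libraries all 45 pairs of genes correlated positively, with a median Pearson r of 0.842. Of these pairs, 57.8% had r of at least 0.8, against 4.63% of pairs of all genes tested, whose median r was 0.128. After adjustment over the 45 pairs, 8 passed for Pearson r and 0 for Spearman rho, of which the smallest adjusted p was 0.0521 (exact permutation within diet groups, two-sided).

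The 3 fibrinogen chains followed one another most closely. Fgb and Fgg had r = 0.998 and rho = 1, Fga and Fgg r = 0.992 and Fga and Fgb r = 0.991, each with adjusted exact permutation p = 0.0260 over 8 libraries. Fgg deviations lay between -0.12 and 0.12 in alcohol libraries and between -0.71 and 0.83 in control libraries, so Pearson r rested mostly on the control libraries. Without WT control libraries 2 and 3, the 2 farthest from the median, r stayed between 0.987 and 0.998. Saa1, Saa2, Orm1, Hp and Hpx were read as another set, with r of 0.863 to 0.998 over 10 pairs, of which 5 passed. Without those libraries r was 0.854 to 0.992. This grouping was not set before the r values were seen, so its r values are a description of it and no separate support. Saa1 and Saa2 had r = 0.998 and Orm1 and Hpx r = 0.986 (adjusted exact permutation p = 0.0313 for both). The high identity of Saa1 and Saa2 bears on their value.

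Between the 2 sets, r was 0.731 to 0.911 over 15 pairs, none of which passed, and fell to between 0.144 and 0.394 without WT control libraries 2 and 3. With all libraries kept, the range between sets overlapped the range within the second set. Over all 8 libraries the rank correlation rho of these pairs was 0.833 to 0.952, and none passed. The Pearson relation rested on those libraries, which were chosen as the farthest from the median. Control library 1 differed between the sets, since its Saa1 deviation was 1.04 and its Fgg deviation 0.18 on the log2 scale, against 1.02 and 0.83 in control library 4. Saa3 and Saa4 with fibrinogen had r of 0.084 to 0.190, and -0.784 to -0.586 without WT control libraries 2 and 3. Saa3 with Saa4 had r = 0.842, which did not pass, and 0.358 without WT control libraries 2 and 4, the farthest for that pair.

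**Figure D4:**
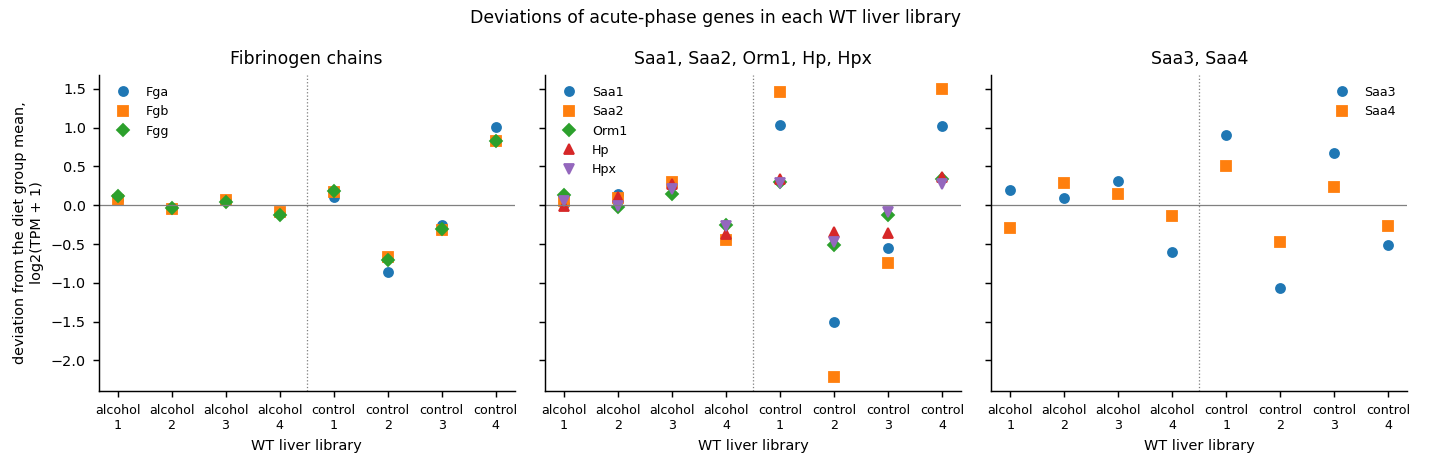
Deviation of each gene from the mean of its diet group, in log2(TPM + 1), for each WT library, in 3 sets of genes. Fibrinogen chains overlie one another, control library 2 is the lowest control for every gene but Hp, and control library 1 is high in the second set but near 0 for fibrinogen.

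Over the 6 libraries labelled RageΔMye, the 9 genes with values above 0 gave 36 pairs, all positive, with a median r of 0.900. Of these, 75% had r of at least 0.8, against 5.31% of pairs of all genes tested. None passed, with adjusted exact permutation p-values of at least 0.105, where 0.0278 is the smallest unadjusted p that this design allows. Fibrinogen pairs had r of 0.905 to 0.964, and Fga and Hp, whose diet differences went opposite ways, had r = 0.965 once those differences were removed. Saa1, Saa2, Orm1, Hp and Hpx had r of 0.8702 to 0.9839 among themselves and 0.7205 to 0.9814 with fibrinogen. The 2 sets described in WT therefore did not stand apart in these libraries. No r was computed over all 14 libraries, because the genotypes form separate clusters.

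**Figure D5:**
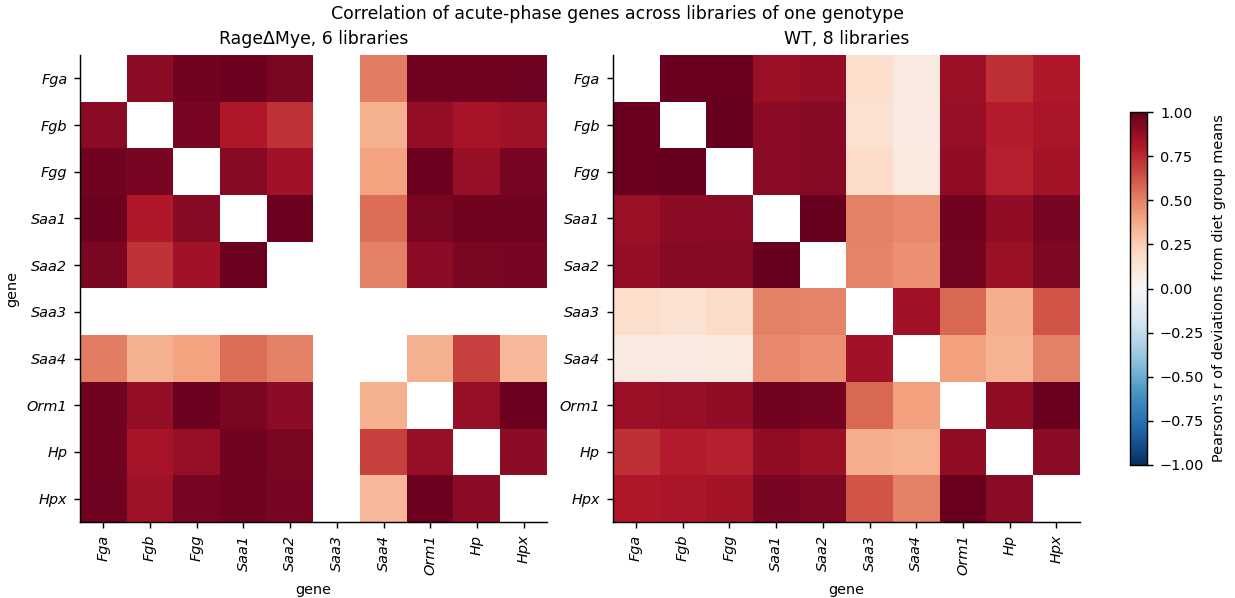
Pearson r of each pair of genes, from deviations from diet group means, over 6 RageΔMye libraries (left) and 8 WT libraries (right), with blank cells where no value exists. Pairs within fibrinogen and within Saa1, Saa2, Orm1, Hp and Hpx are dark in both, and Saa4 is pale against most genes. Pairs between these sets have r of 0.7205 to 0.9814 in RageΔMye, where the sets do not stand apart.

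Among 3603 other genes with at least 10 TPM in both WT groups, those most like the fibrinogen mean over the 8 WT libraries were Mt2 (r = 0.993), Serpina3n (0.992), a protease inhibitor, Lcn2 (0.986), lipocalin 2, Slc41a2 (0.980) and Cpb2 (0.970), a carboxypeptidase that slows clot lysis. Those most like the mean of Saa1 and Saa2 were Fgl1 (0.960), Pdcd11 (0.958), Prg4 (0.956), Lbp (0.940), the endotoxin-binding protein, and Slc41a2 (0.929). These are ranks by r, with no test. Lcn2 averaged 7501 TPM on alcohol diet and 1029 TPM on control diet in WT, and Mt2 averaged 6195 TPM on alcohol diet and 1825 TPM on control diet.

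In RAW264.7 cells, 9 of the 10 genes were listed at 0 in all 6 libraries. Saa3 was at 10.9, 22.97 and 10.8 TPM with the complex and listed at 0 in all 3 BSA libraries. These values equal 1, 2 and 1 times the most frequent value of each library, and Saa3 did not pass (limma, adjusted p = 0.0527), where 0.18% of genes tested were called. Tnf rose, at 2204 to 2455 TPM with the complex and 270 to 437 TPM with BSA (log2 fold change 2.64, limma, adjusted p = 0.00364), and so did Il1b, at 16.9 to 36.1 TPM with the complex and listed at 0 with BSA (limma, adjusted p = 0.0300). Saa3 and Il1b met the filter on low values only through the complex group. In the other lists 0 genes passed, and the first by size of the log2 fold change were Hamp (1.40), Lcn2 (1.19), Igf1 (0.78), Lif (4.08), Socs3 (3.23), Scarb1 (-1.03) and Slc40a1 (-0.96).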

How the data were processed

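Libraries were prepared as stranded mRNA libraries (TruSeq), per the labels' protocols. The submitters' processing notes name mm10 as the build. No source used here names the aligner or the counting tool, or says how strand was set. The deposited tables name no unit. Every column adds up to the same total of 1000000, so the authors' values were read as TPM, and read depth is unknown. The comparisons were fitted with limma 3.58.1 in R 4.3.3 on log2(TPM + 1) with an intensity trend, for genes that averaged 1 TPM or more in 1 or more groups of a table (12069 in liver, 10559 in RAW264.7 cells). Calls were made at a Benjamini-Hochberg adjusted p under 0.05. WT and RageΔMye libraries were fitted apart because their spreads differed. Scripts were tested on simulated data. Ratios and correlations used exact permutation tests in Python 3.11.15 with scipy 1.17.1. The 10 genes and all lists were chosen with earlier results of these data known. The 10 genes are always named; from each of the 5 gene lists (cell type markers apart) up to 4 passing genes with the smallest adjusted p are named, or 2 by size of change where none passed. Some ratios (Fga and Fgg to Fgb, Saa2 to Saa1, fibrinogen to Hp) were chosen after values were seen. RefSeq promoters (GRCm38.p6) matched 8 of 10 symbols and GENCODE vM21 all 10. Alternatives changed the pseudocount, filter, scaling, threshold, fit and libraries used.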

Additional observations from a re-analysis of the deposited data

Results flagged for a closer look

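The alcohol effect on Fgb and Fgg differed between genotypes in part of the fits, and that on Fga passed in none. The difference, RageΔMye minus WT, was -1.85 for Fga, -1.90 for Fgb and -1.99 for Fgg on the log2 scale. In WT, diet cannot be told apart from the sex-linked difference, nor in RageΔMye from the Y-linked difference. Genotype label cannot be told apart from the library differences described above. Fgb (adjusted p = 0.0470) and Fgg (adjusted p = 0.0267) passed a test of the difference itself when each genotype kept the spread of its own limma fit. That alternative was added after the values were seen. For Fga (adjusted p = 0.0646 in that test) every WT alcohol library was above every WT control library, and every RageΔMye alcohol library was below every RageΔMye control library. With library weights, the fit planned beforehand, none of the 3 passed. On simulated data that fit did worse than separate fits, but those data were drawn as separate fits assume.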

How the results depend on the processing

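In WT, 2982 genes were called in the main analysis, 897 at an adjusted p under 0.01 and 337 in 1 fit of all 14 liver libraries. Of the 10 genes, 5 rose in the main analysis, 1 at an adjusted p under 0.01, 2 in the fit of all liver libraries and 9 under median scaling or in the fit of all liver libraries with weights. The 1 fall was lost (0 called) at an adjusted p under 0.01 and in the fit of all liver libraries without weights. Median scaling moved the median of all genes by 0.06 on the log2 scale and rescaling without Mup genes by -0.12, and no direction of the 10 changed in WT. Leaving out single libraries gave 1777 to 3448 genes, 1 to 8 risers and 1 faller.

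In libraries labelled RageΔMye, 1 gene was called in the main analysis, 0 with pseudocounts of 0.1 or 0.01, at an adjusted p under 0.01, or under median or quantile scaling, 7 without a filter, 43 with a filter at 5 TPM, 657 in the unweighted and 50 in the weighted fit of all liver libraries, and 0 to 61 with single libraries left out. With single libraries left out, Saa2 ranged between -3.88 (without alcohol library 3) and 1.89 (without alcohol library 1), Saa1 between -0.92 (without alcohol library 3; -0.23 without control library 1) and 1.71, and Hpx between -0.26 (without alcohol library 3) and 0.65. With the sample number as a replicate block, 0 genes were called in these libraries and 0 in RAW264.7 cells. Same-numbered libraries did not deviate together (r of -0.025 to 0.019 over both sets), so the numbers were not taken as pairs.

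For the difference between genotypes, 61 genes were called, 128 without a filter, 18 at an adjusted p under 0.01 and 463 without weights, and 50 to 71 with single libraries left out. Of the 10 genes, 0 passed in the main analysis, 2 without weights and 2 with separate fits. With single libraries left out, Saa1 ranged between -2.57 and 0.062 and Hp between -0.48 and 0.13, the upper ends without RageΔMye alcohol library 1. In RAW264.7 cells 19 genes were called, 7 at an adjusted p under 0.01, 42 under median scaling (which adds Saa3, 1 of the 10), and 2 to 9 with single libraries left out. Correlated pairs past the test in WT numbered 8, 28 without subtraction of diet means, and 0 to 13 with single libraries left out. The median r was 0.720 to 0.917 in WT and 0.874 to 0.964 in RageΔMye with libraries left out, and 0.594 in RageΔMye without the subtraction. The cause of these changes was not tested. DESeq2 was not run because the values were read as TPM and are not counts.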
